A study of Mus musculus with 35 samples.

Results

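Fibroblast growth factors (FGFs) and their receptors were examined in the suprarenal aorta of mice given angiotensin II (Ang II) or saline. The genes were 6 secreted ligands, Fgf18, Fgf1, Fgf2, Fgf7, Fgf9 and Fgf10, and 2 receptors, Fgfr1 and Fgfr2. They were found as the array probes named for one of these 8 genes, among 27597 gene names on the array. These genes had 15 probes, of which 14 gave a signal well above background on at least 3 arrays and were tested, so that each of the 8 genes was measured. Fgf18 was selected on its measured log2 ratios, which were higher under Ang II at every time, so its values are described here and not tested in any comparison. The other 7 genes were chosen by name, with earlier results of these data known.

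All mice were male and lacked apolipoprotein E (ApoE-/-), in the saline groups too. A subcutaneous osmotic pump, placed at 12 to 14 weeks of age, delivered Ang II at 1000 ng/kg/min or saline alone. The groups were 3 Ang II aortas described as dissected after 7 days, 4, 5 and 6 non-dissected Ang II aortas after 7, 14 and 28 days, and 6, 6 and 5 saline aortas after the same times. Each of the 35 arrays held 1 whole suprarenal aorta in the red channel and a common mouse reference RNA in the green channel. Values are log2 ratios of aorta to reference, a value of 0 meaning equal signal, and they were compared only between aortas.

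FGF ligands are secreted proteins that bind receptor tyrosine kinases at the cell surface, with heparan sulphate chains on syndecans and glypicans as cofactors. Activated receptors signal through the docking protein Frs2 and the adaptor Grb2 to the ERK kinases, and the response includes feedback inhibitors such as Sprouty and Spred proteins. In the vessel wall Fgf1 and Fgf2 are known as mitogens of smooth muscle and endothelial cells, Fgf7 and Fgf10 as products of mesenchymal cells that act mainly through an epithelial splice form of Fgfr2, and Fgf9 and Fgf18 are best known from lung and skeletal development.

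The 60-base probes that bear on disagreements within a gene are shown from 5′ to 3′ on the strand of the transcript, as the scanner files give them, with their coordinates on mm8. The first pair reads Fgf2 at separate places, the second pair overlaps in Fgfr1, and the last is the Fgfr2 probe that was not well above background on any array. The base in capitals is where the Fgfr1 probes differ within the 39 bases they share, G36A counted from the 5′ end of A_52_P668810.
Fgf2 A_51_P399845, on the plus strand and split between chr3:37540561-37587780: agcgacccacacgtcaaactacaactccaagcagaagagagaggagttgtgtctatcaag
Fgf2 A_52_P376768, on the plus strand at chr3:37596166-37596225: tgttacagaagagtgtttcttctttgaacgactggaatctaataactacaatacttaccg
Fgfr1 A_52_P668810, on the plus strand at chr8:27039136-27039195: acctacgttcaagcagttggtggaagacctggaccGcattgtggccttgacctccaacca
Fgfr1 A_51_P109469, on the plus strand at chr8:27039115-27039174: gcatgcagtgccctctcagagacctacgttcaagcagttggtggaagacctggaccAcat
Fgfr2 A_52_P158800, on the minus strand at chr7:130033600-130033659: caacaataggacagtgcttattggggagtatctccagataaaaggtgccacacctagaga
Both ends of Fgf2 A_51_P399845 lie 47220 bases apart on the genome, so this 60-base probe joins separate exons.

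The arrays carried RNA of the arterial wall, as labelled: all 8 contractile smooth muscle markers, Acta2, Myh11 and Tagln among them, were above background on at least 34 of 35 arrays. Markers of white and brown adipocytes were also high, with mean log2 ratios over each list of 2.28 to 5.43 across arrays, and those of chromaffin cells and sympathetic neurons ran from 0.57 to 4.59. Hepatocyte markers ran from 0.19 to 4.86. The aorta channel was above background at 45 to 84.8 percent of gene spots, with a median of 57.1 percent. Fgf18, Fgf7 and Fgfr1 were above background on all 35 arrays and Fgfr2 on 34. Fgf10, Fgf1, Fgf9 and Fgf2 were above background on fewer arrays, 29, 26, 24 and 23, and a ratio near background is compressed towards 0.

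Fgf18 was higher in every Ang II aorta than in every saline aorta of the study. After 7 days its log2 ratio was 3.77, 5.04, 3.47 and 3.88 in the Ang II aortas, against -0.17 at the lowest, 0.55 at the median and 1.18 at the highest of 6 saline aortas. The means were 4.04 ± 0.69 (SD, n = 4) and 0.54 ± 0.55 (SD, n = 6), a change of 3.50 (standard error 0.39), which is 11.3-fold. The 7-day groups lay more than 2 log2 units apart at their nearest aortas.

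At 14 days Fgf18 stood at 2.14, 3.91, 3.79, 4.62 and 2.70 in Ang II aortas, against 0.18 to 1.11 with a median of 0.70 in saline aortas, a change of 2.72 (standard error 0.37), or 6.60-fold. At 28 days it ran from 2.27 to 4.06 with a median of 2.99 in 6 Ang II aortas, against 0.37, 0.00, 0.21, 0.23 and 0.90 in saline aortas, a change of 2.71 (standard error 0.37), or 6.54-fold. The change was smaller than at 7 days by values of -0.78 at 14 days and -0.79 at 28 days, and the Ang II groups of the 3 times overlapped. In aortas that had dissected Fgf18 was 2.24, 3.12 and 2.47, a mean of 2.61 ± 0.46 (SD, n = 3), which is 2.06 (standard error 0.43) above the saline mean at 7 days, or 4.18-fold. The dissected and non-dissected aortas share the 7-day saline aortas as their control.

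**Figure D1:**
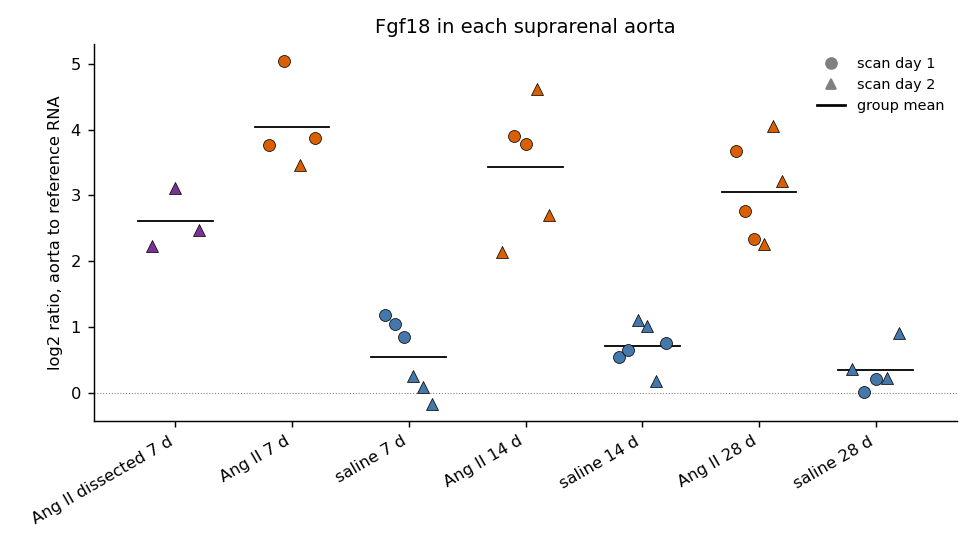
Log2 ratio of Fgf18 to the reference RNA in each of the 35 aortas, by group along the horizontal axis, with circles for arrays of the first scan day, triangles for those of the second and a line at each group mean. All Ang II aortas lie at or above 2.14 and all saline aortas at or below 1.18.

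From high to low, the group means of Fgf18 were 4.04 in Ang II aortas at 7 days, 3.43 ± 1.00 at 14 days and 3.05 ± 0.73 at 28 days, then 2.61 in dissected aortas, then 0.71 ± 0.34, 0.54 ± 0.55 and 0.34 ± 0.34 in saline aortas at 14, 7 and 28 days (SD). Neighbours in this order overlapped except the dissected aortas and the saline aortas at 14 days. The saline groups of the 3 times overlapped one another. Within the first scan day the change at 7 days was 3.21 and within the second 3.41, although the 3 saline aortas scanned on the first day (0.84 to 1.18) all lay above the 3 scanned on the second (-0.17 to 0.26). Under all alternatives tried, the change ran from 3.09 to 3.69 at 7 days, 2.00 to 3.20 at 14 days, 2.51 to 2.91 at 28 days and 1.27 to 2.54 in dissected aortas, the lowest of the last range with median centring.

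The macrophage markers separated the same aortas as Fgf18 did. The mean log2 ratio of the 8 markers, all of them above background on all 35 arrays, was 1.45 to 2.51 in Ang II and 1.93 to 2.90 in dissected aortas, against -0.87 to 0.12 in saline aortas at 7 days. It was 1.09 to 1.42 in Ang II aortas against -0.28 to 0.74 in saline aortas at 14 days, and 0.99 to 2.24 in Ang II aortas against -0.42 to 0.51 in saline aortas at 28 days. Fibroblast and adventitia markers ran from 3.18 to 3.70 in Ang II and 2.01 to 2.74 in dissected aortas, against 0.77 to 2.81 in saline aortas at 7 days. Their part in the Fgf18 difference was not tested, and in RNA of whole aortas a change in the number of cells of a type and a change in RNA per cell cannot be told apart. With levels of adipocyte, kidney tubule and chromaffin markers as covariates, the Fgf18 change was 3.25 at 7 days, 2.93 at 14 days and 2.74 at 28 days.

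Among the 5 genes whose log2 ratio followed Fgf18 most closely over the 35 arrays, of 15651 genes searched, were Col8a1 (Pearson r = 0.94), Col8a2 (0.91), Piezo2 (0.89) and Ltbp2 (0.88). Col8a1 and Col8a2 encode the chains of type VIII collagen, a non-fibrillar collagen, and Ltbp2 a protein of elastic microfibrils. These values include the difference between Ang II and saline groups, and within the 18 Ang II arrays alone r was 0.69 for Col8a1, 0.70 for Col8a2, 0.64 for Ltbp2 and 0.45 for Piezo2. All arrays share the reference RNA, so these are descriptions with no test.

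Among the other 7 genes, 3 passed an adjusted p of 0.05 after 7 days of Ang II, Fgf9 higher and Fgf1 and Fgf10 lower, where 27.1 percent of 18671 genes tested were called. The genes' median change was 0.25, against 0.00 over all genes. The arrays did not overlap for 1 of the 7, Fgf10, as for 20.6 percent of all genes. At 14 days 0 of the 7 were called by limma and 0 did not overlap (2.4 and 3.27 percent of all genes), and 1 had an unadjusted p under 0.05. At 28 days 0 of the 7 were called by limma and 0 did not overlap (0.9 and 1.37 percent of all genes), and 0 had an unadjusted p under 0.05. For counts at an unadjusted p, here and below, the share of all genes was not counted. In dissected aortas 3 of the 7 differed from saline, Fgf2 higher and Fgf1 and Fgf10 lower, and the same 3 did not overlap, where 36.5 percent of all genes were called and 33.5 percent did not overlap. Each p-value of this fit rests on the spread between single aortas within groups, pooled over all 7 groups and drawn towards that of other genes.

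**Figure D2:**
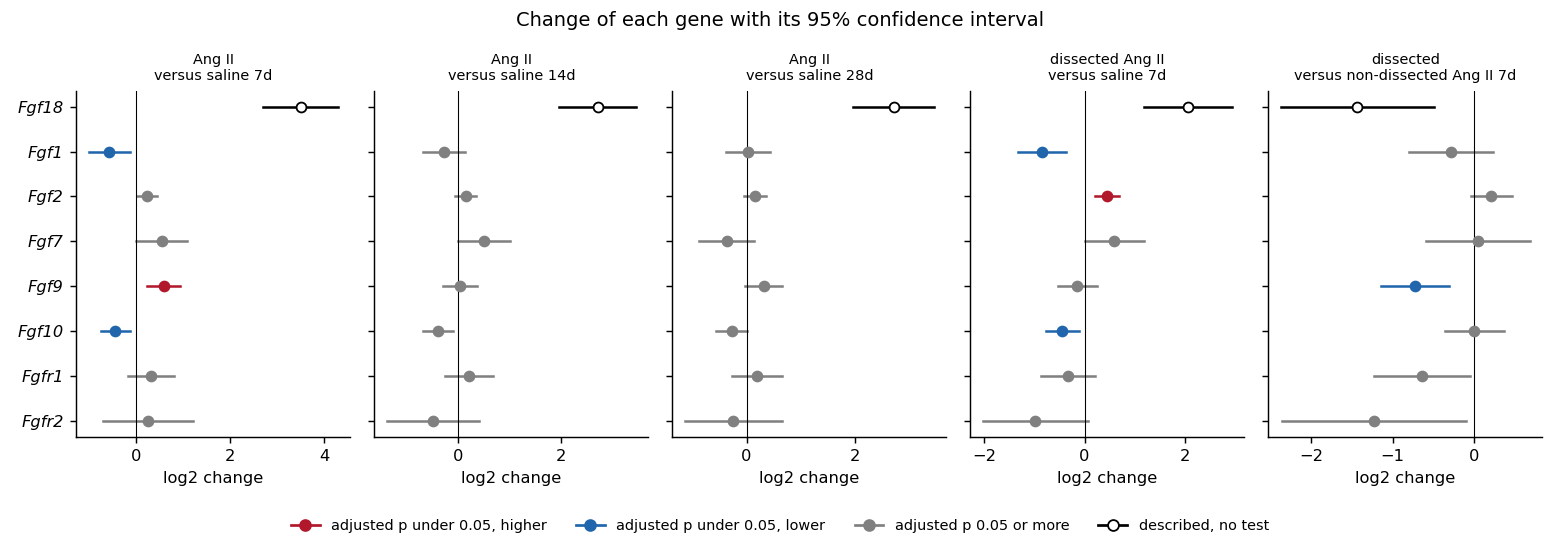
Log2 change of each gene in 5 comparisons, with bars for the 95 percent confidence interval of the limma fit and each panel on its own horizontal axis. Fgf18 (open symbols, not tested) lies at 2.06 to 3.50 against saline, and the other genes lie between -0.98 and 0.59 in the same panels.

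Fgf9, a ligand made by epithelia and mesothelium in the developing lung, was higher in Ang II aortas at 7 days. Its log2 ratio was 0.84, 0.97, 0.83 and 0.36, against -0.02 to 0.39 with a median of 0.12 in saline aortas. The lowest Ang II aorta lay inside the saline range and the others above it, and the change was 0.58 (standard error 0.18, limma adjusted p = 0.015). The call was lost without the Ang II aorta of replicate 2, where the change was 0.51 (adjusted p = 0.0659). Within the first and second scan days it was 0.51 and 0.70 (adjusted p = 0.0831 and 0.254).

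In aortas that had dissected Fgf9 was 0.03, 0.18 and -0.13, below all 4 non-dissected aortas and not well above background on any of the 3 arrays. The change was -0.72 (standard error 0.21, limma adjusted p = 0.0267). In the aorta channel alone Fgf9 was 1.57-fold lower than in non-dissected aortas. Here each dim array counts at its own signal or at the lowest signal of probes above background, whichever is higher. The probe's own signal was the higher on all 3 arrays, so this fold is the plain ratio of the group means and not a lower bound. Against saline the dissected aortas differed by -0.15 (adjusted p = 0.593). The call against non-dissected aortas was lost without any of 6 of the 7 aortas, Ang II replicates 1, 2 and 3 (adjusted p = 0.0685, 0.0894 and 0.0638) or dissected replicates 1, 2 and 3 (0.0785, 0.0524 and 0.111), with changes between -0.80 and -0.64. All 3 dissected arrays were scanned on the second day, as was 1 of the 4 non-dissected arrays, and with scan day as a block the change was -0.61 (adjusted p = 0.0994), as it was -0.38 with median centring (0.127).

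At the later times Fgf9 overlapped between the groups. It was 1.00, 0.17, 0.17, 0.33 and 0.12 in Ang II aortas at 14 days, against 0.06 to 0.59 in saline aortas, a change of 0.04 (95 percent interval -0.29 to 0.38). It ran from 0.02 to 1.08 at 28 days, against 0.00, 0.21, 0.30, 0.05 and 0.35 in saline aortas, a change of 0.31 (-0.02 to 0.65).

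Fgf10, a ligand of mesenchyme that signals to epithelium and to adipocyte precursors, was lower in Ang II aortas at 7 days with no overlap. Its log2 ratio was -0.83, -0.87, -0.89 and -0.65, against -0.51 to -0.18 with a median of -0.43 in saline aortas, a change of -0.44 (standard error 0.15, limma adjusted p = 0.0269). Dissected aortas had -0.85, -0.87 and -0.69, likewise below all saline aortas, a change of -0.44 (standard error 0.16, adjusted p = 0.034). None of the 3 dissected arrays was well above background, and in the aorta channel, at their own signal, their mean was 1.24-fold lower than that of saline. The probe was printed at 10 spots on each array, with a median SD of 0.12 between spots.

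Within the first and second scan days the Fgf10 change at 7 days was -0.40 and -0.54 (adjusted p = 0.159 and 0.355), and with scan day as a block it was -0.47 (0.0196). The call at 7 days was lost without Ang II replicates 1, 2 or 3 (adjusted p = 0.0653, 0.0738 and 0.0643) or saline replicate 5 (0.0534). The call in dissected aortas was lost without dissected replicates 1 or 2 (0.106 each) or saline replicates 1 or 5 (0.0608 and 0.0611), and with scan day as a block (-0.38, 0.0719). Dissected and non-dissected aortas differed by 0.00 in the fit (adjusted p = 0.994), while in the scanner software's own ratios this difference was -1.32 (adjusted p = 0.0342).

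At 14 days Fgf10 was -0.79, -0.64, -0.67, -1.45 and -1.08 in Ang II aortas, against -0.92 to -0.34 in saline aortas, a change of -0.38 (standard error 0.14) that had an unadjusted p of 0.01 and a limma adjusted p of 0.131. At 28 days it ran from -1.0 to -0.18 with a median of -0.48, against -0.26, -0.11, -0.42, -0.09 and -0.42 in saline aortas, a change of -0.27 (-0.56 to 0.01). The groups overlapped at both times.

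Fgf1, a ligand that binds all FGF receptors and leaves cells without a signal peptide, was lower at 7 days in both Ang II groups than in saline. Its log2 ratio was 0.07, 0.45, 0.51 and 0.25 in Ang II aortas, against 0.29 to 1.48 with a median of 0.83 in saline aortas, a change of -0.57 (standard error 0.22, limma adjusted p = 0.0462). Dissected aortas had -0.04, 0.08 and 0.08, below every saline aorta, a change of -0.85 (standard error 0.24, adjusted p = 0.00495). The dissected arrays were not well above background, and in the aorta channel, with 2 of the 3 raised to the lowest signal of probes above background, they were at least 1.59-fold lower than saline.

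The Fgf1 call at 7 days was lost without any of saline replicates 2, 4 and 6 (adjusted p = 0.117, 0.125 and 0.0663) or Ang II replicates 1, 2 and 4 (0.146, 0.0702 and 0.0938). Within the first scan day the change at 7 days was -0.58 (adjusted p = 0.222), and within the second, which holds 1 Ang II array, it was -0.44. With scan day as a block it was -0.56 (0.0579). Of 26 alternatives, arrays left out among them, 20 lost the call at 7 days. The change in dissected aortas within the second scan day was -0.91 (0.0125). The call in dissected aortas was lost with median centring (-0.47, adjusted p = 0.0994) and with slide as a block (-0.74, 0.0701). In the scanner software's own ratios the change at 7 days was -1.54 (adjusted p = 0.0674), and on a second Fgf1 probe, A_52_P538673, it was -0.07 at 7 days (adjusted p over all probes 0.685) and -0.28 in dissected aortas (0.072). This probe was above background on 14 arrays. Markers of dividing cells also separated the 7-day groups, with a mean log2 ratio of -2.10 to -1.58 in Ang II and -2.06 to -1.88 in dissected aortas, against -4.42 to -3.16 in saline aortas. Their part in the Fgf1 difference was not tested.

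Fgf1 was 1.07, 1.11, -0.01, 0.89 and 0.90 in Ang II aortas at 14 days, against 0.52 to 1.37 in saline aortas, a change of -0.26 (95 percent interval -0.67 to 0.15). At 28 days it ran from 0.06 to 0.74, against 0.48, 0.07, 0.55, 0.26 and 0.71 in saline aortas, a change of 0.03 (-0.38 to 0.44). Neither time showed a separation of the groups.

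Fgf2, a heparin-binding mitogen of smooth muscle and endothelium, was higher in dissected aortas. Its log2 ratio was 0.39, 0.58 and 0.81, against 0.03 to 0.28 with a median of 0.16 in saline aortas, with no overlap and a change of 0.44 (standard error 0.12, limma adjusted p = 0.00321). Non-dissected Ang II aortas had 0.36, 0.45, 0.45 and 0.24 at 7 days, a change of 0.23 (95 percent interval 0.01 to 0.44, adjusted p = 0.11). The dissected and non-dissected aortas overlapped, with a difference of 0.22 (-0.04 to 0.47).

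These Fgf2 values come from the exon-joining probe, printed at 10 spots on each array, with a median SD of 0.11 between spots. The second Fgf2 probe shown above was above background on 8 arrays and gave -0.03 (standard error 0.13, adjusted p over all probes 0.884) in dissected aortas against saline and 0.19 (0.12) in non-dissected aortas. Within the second scan day the change in dissected aortas was 0.47 (adjusted p = 0.0303). The call was lost with the mean of both probes (0.21, adjusted p = 0.115) and without dissected replicate 3 (0.34, adjusted p = 0.0506). At 14 days the change of Fgf2 was 0.15 (-0.05 to 0.35) and at 28 days 0.16 (-0.04 to 0.36), with overlap at both times.

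Fgf7, keratinocyte growth factor, lay below the reference on every array. The values were -1.27, -1.35, -1.87 and -1.51 in Ang II aortas at 7 days and -1.54, -1.16 and -1.64 in dissected aortas, against -2.77 to -1.47 with a median of -2.03 in saline aortas. The changes were 0.54 (standard error 0.26, limma adjusted p = 0.128) and 0.59 (0.29, adjusted p = 0.111), and the groups overlapped. In the scanner software's own ratios they were 1.15 (adjusted p = 0.0106) and 1.06 (adjusted p = 0.0215), and with scan day as a block the change in dissected aortas was 0.73 (adjusted p = 0.044). Under all alternatives tried, the change in non-dissected aortas ran from -0.06 to 1.15.

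At 14 days Fgf7 was -1.72, -1.77, -1.62, -1.57 and -2.18 in Ang II aortas, against -2.52 to -1.73 in saline aortas, a change of 0.50 (95 percent interval -0.00 to 1.01, adjusted p = 0.274). At 28 days it ran from -2.67 to -0.79, against -1.43, -0.88, -1.86, -0.78 and -1.31 in saline aortas, a change of -0.37 (-0.87 to 0.14). The effect of Ang II on Fgf7 differed among the times with an unadjusted p of 0.0249 and a limma adjusted p of 0.184.

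Fgf7 also varied in the saline aortas themselves, which averaged -2.04 ± 0.46 at 7 days, -2.27 ± 0.29 at 14 days and -1.25 ± 0.43 at 28 days (SD, n = 6, 6 and 5). This had an unadjusted p of 0.000784 and a limma adjusted p of 0.0706, and with scan day as a block the adjusted p was 0.0433. It passed without saline replicate 5 at 7 days (0.0299) or saline replicate 3 at 28 days (0.0187). Over all 17 saline arrays left out in turn the limma adjusted p ran from 0.0187 to 0.416. White adipocyte markers ran from 4.06 to 5.22, 3.87 to 5.20 and 3.06 to 5.09 in saline aortas at 7, 14 and 28 days, and their part in the Fgf7 levels was not tested. With the adipocyte, kidney tubule and chromaffin marker levels as covariates, the Ang II change of Fgf7 at 14 days was 0.93 (adjusted p = 0.039).

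**Figure D3:**
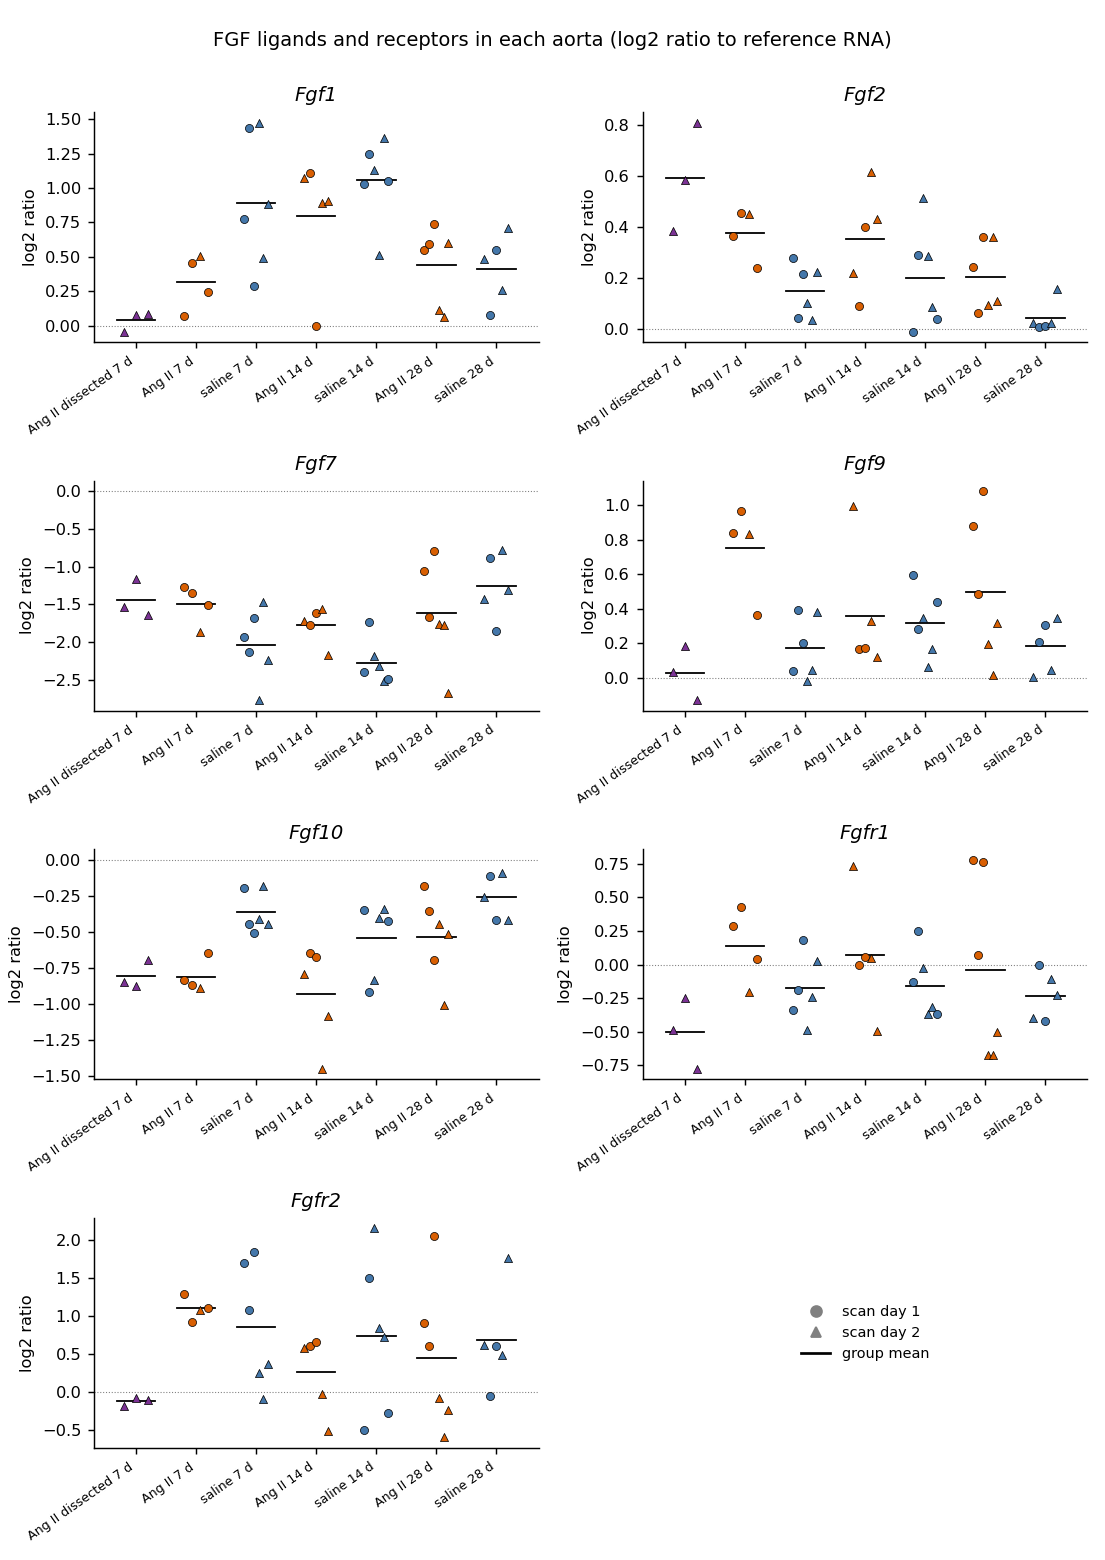
Log2 ratio to the reference RNA in each of the 35 aortas for the 7 genes other than Fgf18, by group along the horizontal axis, with circles for the first scan day, triangles for the second and a line at each group mean. Fgf10 at 7 days lies at or below -0.65 in Ang II aortas and at or above -0.51 in saline aortas, while Fgfr1 and Fgfr2 spread widely within groups.

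Fgfr1, the receptor most widely made by mesenchymal cells, overlapped between Ang II and saline at each time. In Ang II aortas at 7 days its log2 ratio was 0.29, 0.43, -0.20 and 0.04, against -0.49 to 0.18 in saline aortas, a change of 0.31 (95 percent interval -0.18 to 0.81). The changes were 0.23 (-0.24 to 0.69) at 14 days and 0.19 (-0.28 to 0.66) at 28 days. Dissected aortas had -0.48, -0.25 and -0.77, below all non-dissected aortas, a difference of -0.64 (-1.23 to -0.05) that had an unadjusted p of 0.0339 and a limma adjusted p of 0.182. With array weights the adjusted p was 0.00819, and with scan day as a block the difference was not called. The non-dissected aortas averaged 0.25 on the first scan day and had -0.20 on the single array of the second. All 3 dissected arrays were of the second day, with a mean of -0.50. Against saline the dissected aortas differed by -0.33 (-0.87 to 0.22, limma adjusted p = 0.359), and with median centring by -1.04 (0.0299).

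Fgfr1 values at 28 days split by scan day in the Ang II group. They were 0.78, 0.07 and 0.76 in the Ang II aortas scanned on the first day and -0.67, -0.67 and -0.50 in those scanned on the second, while saline aortas had 0.00 and -0.42 on the first day and -0.40, -0.11 and -0.23 on the second. The other 3 Fgfr1 probes showed the same split in the Ang II aortas, with means of 0.36, 0.44 and 0.29 on the first day and -0.43, -0.11 and -0.35 on the second. Fgf7, Fgf9 and Fgfr2 were split alike in these Ang II aortas with no overlap between days, at means of -1.17 and -2.07 for Fgf7, 0.82 and 0.18 for Fgf9 and 1.19 and -0.30 for Fgfr2, first day before second. Within the first and second scan days the change against saline at 28 days was therefore 0.20 and -0.90 for Fgf7 (limma adjusted p = 0.885 and 0.0922), 0.75 and -0.37 for Fgfr1 (0.241 and 0.368), 0.92 and -1.26 for Fgfr2 (0.539 and 0.0575) and 0.56 and 0.04 for Fgf9 (0.284 and 0.926). Fgf7, Fgfr1 and Fgfr2 thus differed in sign between the days, and none passed the threshold on either. The share of all genes that split by scan day in these Ang II aortas was not counted, so the split may not be particular to these genes.

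Marker levels of the 28-day Ang II aortas split by scan day as well. Contractile smooth muscle markers averaged 2.67 to 3.65 on the first day and 2.15 to 2.22 on the second, fibroblast and adventitia markers 2.53 to 3.80 and 2.19 to 2.45, and white adipocyte markers 4.07 to 4.38 and 4.67 to 5.09. Saline aortas at 28 days had contractile markers of 1.61 and 2.98 on the first day and 2.94 to 4.88 on the second. The part of these markers in the split of the FGF genes was not tested, and different mice were scanned on each day, 3 Ang II aortas on each.

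The Fgfr1 probes that overlap by 39 bases gave close values despite the differing base, -0.64 (standard error 0.29) for A_52_P668810 and -0.53 (0.19, adjusted p over all probes 0.078) for A_51_P109469 in dissected against non-dissected aortas. Probes elsewhere in Fgfr1 gave -0.03 (0.17) and -0.27 (0.16), none passing the threshold. The fit with 1 probe for Fgfr1 thus rests on the brightest of 4.

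Fgfr2, the receptor whose splice forms bind Fgf7 and Fgf10 or Fgf9 and Fgf18, had the largest pooled spread within groups of the 8 genes in the fit. In Ang II aortas at 7 days its log2 ratio was 1.29, 0.93, 1.09 and 1.11, against -0.10 to 1.85 with a median of 0.72 in saline aortas, a change of 0.25 (95 percent interval -0.71 to 1.20). The changes were -0.48 (-1.38 to 0.41) at 14 days and -0.24 (-1.14 to 0.66) at 28 days. Dissected aortas had -0.19, -0.08 and -0.10, close together and below all non-dissected aortas, a difference of -1.23 (-2.36 to -0.09) with an unadjusted p of 0.0347 and a limma adjusted p of 0.185. Against saline they differed by -0.98 (-2.03 to 0.07, adjusted p = 0.138).

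These Fgfr2 differences passed the threshold in some other fits and not in others. Against non-dissected aortas the adjusted p was 0.0032 with only the groups compared in the fit, 0.00916 with array weights and 0.0353 with median centring. Against saline it was 0.0142 with the neighbouring tissue covariates, 0.013 with median centring and 0.0202 with array weights. With scan day as a block the difference from non-dissected aortas was not called. Scan days were unequal here, and saline aortas at 7 days averaged 1.54 on the first and 0.17 on the second. All 3 dissected arrays were of the second day, and non-dissected aortas had 1.11 on the first and 1.09 on the second. A second Fgfr2 probe, A_51_P432403, gave -0.34 (standard error 0.20, adjusted p over all probes 0.345) and -0.34 (0.19, 0.156) for the same differences.

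Across the 35 arrays Fgfr2 followed genes of smooth muscle. The closest of 15651 genes were Fhl1, a LIM-domain protein of muscle (Pearson r = 0.92), Kcnmb1, the smooth muscle subunit of the calcium-activated potassium channel (0.91), and Ntn1, the guidance factor netrin (0.91), and the values within the 17 saline arrays alone were 0.90, 0.96 and 0.90. Contractile smooth muscle markers averaged 1.85 to 2.87 in dissected and 3.01 to 3.57 in Ang II aortas, against 1.82 to 3.95 in saline aortas at 7 days, and none of the 8 was called between dissected and non-dissected aortas. Their part in the Fgfr2 difference was not tested. The arrays share the reference RNA, and the values of r carry no test.

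**Figure D4:**
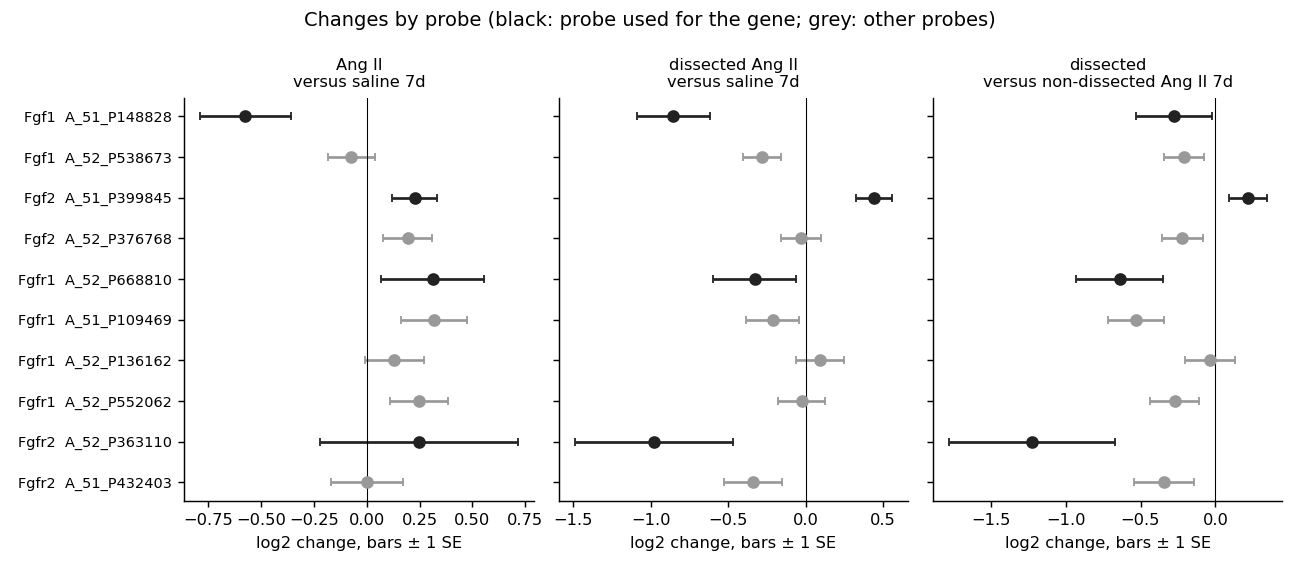
Log2 change with 1 standard error on either side for each tested probe of the 4 genes with several probes, in 3 comparisons, with black for the probe used for the gene and grey for its other probes. The Fgf2 probes lie at 0.44 and -0.03 in dissected aortas against saline, and the Fgfr1 probes between -0.64 and -0.03 in dissected against non-dissected aortas.

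Dissected aortas were also set against non-dissected ones of the same 7 days of Ang II. Of the 7 genes Fgf9 alone was called, lower, where 8.03 percent of all genes were called and 4.98 percent were called lower. The arrays of 3 of the 7 did not overlap, Fgf9, Fgfr1 and Fgfr2, all lower in dissected aortas, where 26.9 percent of all genes did not overlap. Over the 7 genes the median was -0.28, against 0.00 over all genes. Fgf18 was chosen on values that include these Ang II aortas, so its difference of -1.43 is given with no test. This difference ran from -2.01 with median centring to -0.86 within the second scan day, which holds 1 non-dissected aorta.

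The effect of Ang II did not pass the threshold for a difference among the 3 times for any of the 7 genes in the limma fit, where 1.48 percent of all genes were called and 1 of the 7, Fgf7, had an unadjusted p under 0.05. Across saline aortas of the 3 times 0 of the 7 were called by limma, where 0.503 percent of all genes were, and 2, Fgf7 and Fgf1, had an unadjusted p under 0.05. Fgf1 averaged 0.89 ± 0.49, 1.06 ± 0.29 and 0.41 ± 0.25 in saline aortas at 7, 14 and 28 days (SD, n = 6, 6 and 5, unadjusted p = 0.0101, adjusted p = 0.2).

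Marker levels of neighbouring tissue differed between the 7-day groups as well. Chromaffin and sympathetic neuron markers averaged 0.57 to 2.70 in Ang II aortas, against 1.65 to 4.54 in saline aortas, and 5 of the 8 were called lower. With these and the adipocyte and kidney tubule markers as covariates, 0 of the 7 genes were called at 7 days, with changes of 0.30 for Fgf9 (adjusted p = 0.475), -0.27 for Fgf1 (0.624) and -0.53 for Fgf10 (0.0982).

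The closest genes in pattern to the remaining members were Tceal1, Abhd3 and Tspyl5 for Fgf1 (r = 0.84, 0.83 and 0.82), Ramp2, Ubn2 and Arl13b for Fgf2 (0.84, 0.84 and 0.83) and Rin1, Dvl2 and Btbd19 for Fgf7 (0.92, 0.86 and 0.86). They were Gpx8, Svep1 and Plpp1 for Fgf9 (0.82, 0.79 and 0.78), Klhdc1 and 2 unnamed transcripts for Fgf10 (0.83 to 0.84) and Adamtsl4, Sh3d19 and Cyp20a1 for Fgfr1 (0.84, 0.83 and 0.83). Among the members, Fgf9 and Fgfr1 followed each other most (r = 0.78) and Fgf2 and Fgf10 ran most in opposite directions (-0.74), over the same 35 arrays.

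Over the 8 pathway lists without Fgf18, 21 of 72 genes tested were called at 7 days and 26 of 72 in dissected aortas against saline. These shares, 29.2 and 36.1 percent, lie near the 27.1 and 36.5 percent of all genes called. Heparan sulphate, the cofactor of FGF binding, was the part of the pathway with the most genes higher at 7 days. Of 13 enzymes that build or edit its chains 6 were higher and 0 lower, with a median of 0.49 against 0.00 over all genes, where 14.5 percent of all genes were higher and 12.6 percent lower. Hs6st2, a sulphotransferase, rose by 1.20 (standard error 0.43, limma adjusted p = 0.0381), and Ext1 and Ext2, which polymerise the chain, by 1.09 (0.28, 0.00509) and 0.92 (0.21, 0.00222). Of 11 core proteins that carry the chains 4 were higher and 0 lower, with a median of 0.46, led by the syndecan Sdc1 at 1.46 (0.31, 0.000874) and the glypicans Gpc6 at 0.89 (0.23, 0.0056) and Gpc1 at 0.81 (0.30, 0.0422). The core proteins Hspg2 and Gpc5, also on the list, were not tested. Markers of other kinds rose at the same time, 8 of 8 for macrophages, 8 of 8 for dividing cells and 6 of 8 for fibroblasts and adventitia, with the levels given above. In dissected aortas these counts were 8, 7 and 0 of 8. Their part in the heparan sulphate changes was not tested. Alternative fits are not given for the pathway lists, while the number of all genes called at 7 days varied among such fits, as given below.

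In dissected aortas 5 of the 13 enzymes were higher and 0 lower than saline (median 0.57, against -0.04 over all genes), and of the 11 core proteins 4 were higher and 1 lower, where 18.9 percent of all genes were higher and 17.6 percent lower. The largest were Ndst1 at 0.89 (standard error 0.22, limma adjusted p = 0.00179), Hpse, which cleaves heparan sulphate, at 0.83 (0.25, 0.00983) and Ext2 at 0.78 (0.23, 0.00874). Among the core proteins Sdc3 rose by 1.30 (0.25, 0.000147), Gpc1 by 1.21 (0.33, 0.00431) and Sdc1 by 1.03 (0.34, 0.0158). At 14 days 1 core protein, Gpc2, was higher, by 0.40 (0.10, 0.0371), and 0 enzymes were called by limma (1 had an unadjusted p under 0.05), where 1.12 percent of all genes were higher and 1.28 percent lower, and at 28 days 0 of either list were called, with 1 of each at an unadjusted p under 0.05.

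Calls among the remaining receptors and ligands are set beside the 27.1 percent of all genes called at 7 days and the 36.5 percent in dissected aortas. Of 7 receptors and co-receptors 1 was higher at 7 days, Fgfr4, by 1.01 (standard error 0.18, limma adjusted p = 0.000132), and 2 were lower in dissected aortas, Klb, the co-receptor of endocrine FGFs in fat and liver, with a change of -1.81 (0.64, 0.0271), and Fgfr3 with -0.64 (0.22, 0.0205). Of the 8 ligands tested besides Fgf18, Fgf21 was the only one called beyond those above, higher in dissected aortas by 0.72 (0.28, 0.0428). A further 9 of 18 ligands on the list were not tested, and the FGF binding protein Fgfbp3 was called in no comparison, with changes between -0.20 and 0.06. Of 4 intracellular FGF homologous factors, which bind sodium channels and are not secreted, Fgf12 was lower at 7 days with a change of -1.84 (0.68, 0.0439), and Fgf13 was lower at 14 days with -0.85 (0.20, 0.0246) and in dissected aortas with -0.66 (0.24, 0.0287). Chromaffin and sympathetic neuron markers were lower at 7 days too, as given above, and their part in the Fgf12 change was not tested. Hepatocyte markers had a median change of -1.74 in dissected aortas against saline, with 2 of 5 called lower. The part of hepatocyte markers in the Klb and Fgf21 changes was not tested.

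Signalling and feedback genes went in both directions, and their counts stand beside 27.1 percent of all genes called at 7 days and 36.5 percent in dissected aortas. At 7 days 1 of 11 receptor-proximal genes was higher and 2 lower, the adaptor Shc1 by 0.37 (standard error 0.12, limma adjusted p = 0.018), the phosphatase Ptpn11 with a change of -0.52 (0.17, 0.0223) and the docking protein Frs3 with -0.29 (0.10, 0.0387). In dissected aortas 1 was higher and 4 lower, led by Ptpn11 at -1.02 (0.18, 6.02e-05), the adaptor Crk at -1.02 (0.19, 8.9e-05) and Frs2 at -0.88 (0.19, 4e-04). Of 17 feedback and target genes 1 was higher and 2 lower at 7 days, Flrt2, a transmembrane protein that binds FGF receptors, by 1.95 (0.18, 7.85e-09), Spred2 with -0.80 (0.17, 0.00119) and Spry2 with -0.57 (0.18, 0.022).

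In dissected aortas 2 of the 17 feedback and target genes were higher and 2 lower, Flrt2 by 1.04 (standard error 0.19, limma adjusted p = 8.7e-05), the transcription factor Etv4 by 0.89 (0.27, 0.00887), and the inhibitor Spry1 with a change of -0.87 (0.28, 0.0156). Flrt2 was also higher at 14 days, by 0.64 (0.17, 0.0348), the only call in that list, where 2.4 percent of all genes were called. At 28 days 0 of 72 genes tested in the 8 pathway lists besides Fgf18 were called, where 0.9 percent of all genes were. An unadjusted p under 0.05 was found for 10 of the 72, with no share of all genes counted beside it. Between dissected and non-dissected aortas 8 of 72 were called, 11.1 percent against 8.03 percent of all genes. In addition to Fgf9, the genes Frs2 and Crk were lower (-0.85 and -1.01, adjusted p = 0.00819 and 0.00265), as were Spry1 (-1.13, 0.0188), Flrt2 (-0.90, 0.00711), Sdc2 (-1.14, 0.0341) and Ext1 (-1.17, 0.0253), and Frs3 was higher (0.42, 0.0317).

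**Figure D5:**
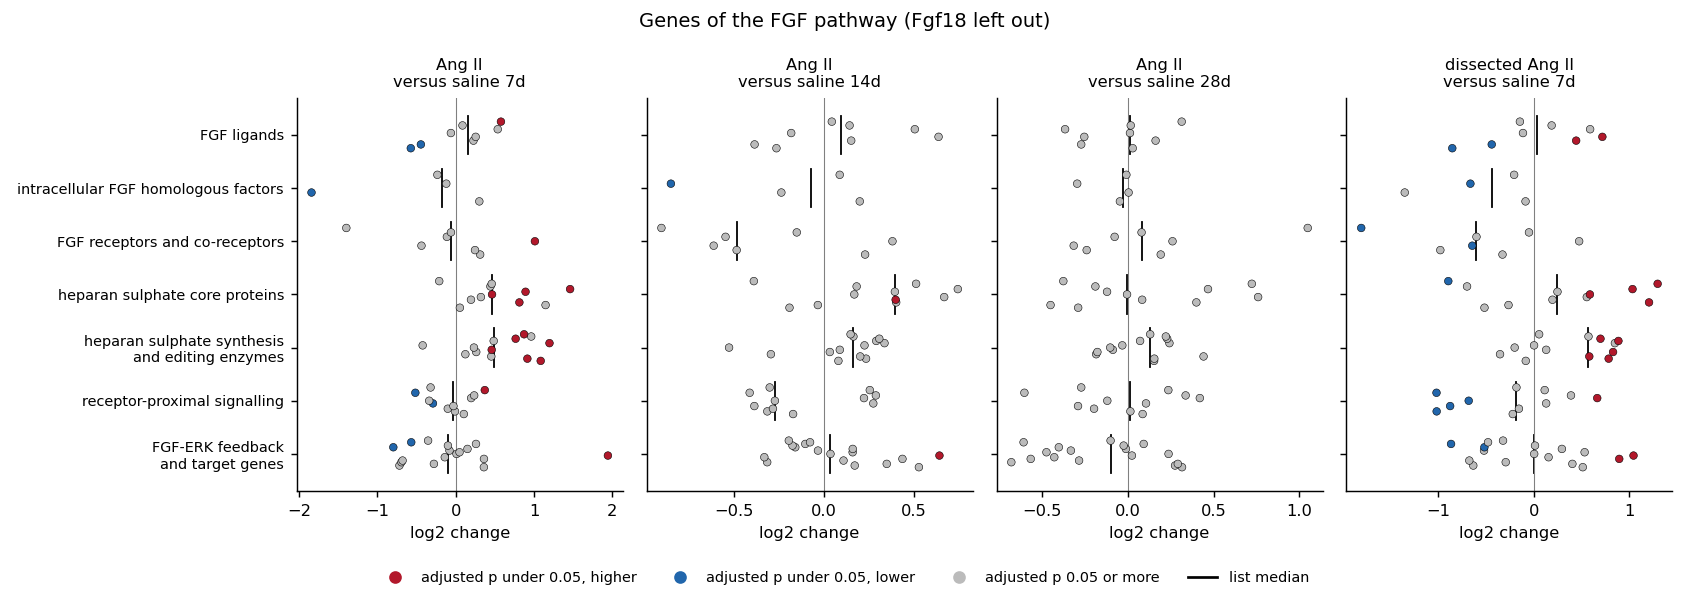
Log2 change of each tested gene of 7 FGF pathway lists in 4 comparisons, Fgf18 left out, with red and blue for genes called higher and lower, grey for the rest, a line at each list median and each panel on its own horizontal axis. The heparan sulphate lists have medians of 0.46 and 0.49 at 7 days, and at 28 days no gene is coloured.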

How the data were processed

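RNA of 35 aortas was measured on two-colour Agilent arrays. Per the labels, aorta RNA was amplified and labelled with Cy5, the same Stratagene mouse reference carried Cy3 on every array, and dyes were not swapped. The spot intensity values in the deposited scanner files came from Feature Extraction 9.5.3.1 as run by the authors (per the submitters' processing notes), with protocol GE2-v5_95_Feb07 and probe positions on mm8 (per the file headers). Those deposited files also carry the scanner software's log10 ratio. A second deposited table gives a log2 ratio per probe and array, which had a slope of 3.32 to 3.34 on that log10 ratio. Whether the authors normalized it further is not given in the sources used here.

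Background was corrected by normexp with an offset of 50, and ratios were normalized by loess within each array (span 0.3), with control and non-uniform spots at weight 0. Outlier spots were left out, which left 134 genes without a value on some arrays. Spots of a probe were averaged, and the brightest probe of each gene above background on at least 3 arrays was kept. A probe is above background where at least a share of 0.5 of its spots is marked so by the scanner software. A 7-group limma 3.58.1 fit in R 4.3.3 covered all 18671 genes and 35 arrays, with Benjamini-Hochberg adjustment over genes and calls at an adjusted p of 0.05. A further fit covered 27825 probes. Fgf18 was left out of all tests and counts, also between dissected and non-dissected and among saline aortas, where the planned design counted it. The fit was also run on simulated data with known changes and independent noise. Those data held no scan day, slide or tissue differences, so that run does not bear on them. Folds given for the aorta channel use that channel after loess and Aquantile normalization. As every aorta carried Cy5, a dye effect equal on all arrays is common to both groups of such a fold. A dye effect that varies between arrays was not tested.

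The members, pathway lists and marker lists were chosen with earlier results of these data known. Named genes are all 8 members, the 3 genes with the largest change among those called in each pathway list and comparison, and the genes closest in pattern (5 for Fgf18, 3 for the others) among genes above background on at least 18 arrays. One of the genes closest to Fgf18 is not reported here. Promoter and protein sequences were not used here. The number of arrays limits the precision. Arrays lay on 11 slides and 2 scan days. Alternatives were the scanner's and the authors' ratios, another offset, median centring, scale normalization, other probe filters and probe averaging, slide, scan day and replicate number as blocks, fits within a scan day or over the compared groups alone, array weights, marker levels of neighbouring tissue as covariates, and leaving out each array.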

Additional observations from a re-analysis of the deposited data

Results flagged for a closer look

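Within groups of 4 to 6 aortas, 3 of 48 checks found an aorta whose gap to its nearest neighbour was a large part of the group's range, where chance gives about 1 in 20. Fgf1 was -0.00506 in Ang II replicate 3 at 14 days, against 0.89 for the nearest aorta of its group, and that array was not above background for the probe. Fgf9 was 1.00 in Ang II replicate 1 at 14 days, against 0.33 for the nearest. Fgf2 was 0.15 in saline replicate 5 at 28 days, against 0.02 for the nearest, and that array too was not above background for the probe.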

How the results depend on the processing

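The FGF genes called at 7 days, 3 of 7, numbered 0 with median centring, within either scan day and with the neighbouring tissue covariates, 1 with scale normalization between arrays and with slide as a block, 5 with array weights, and 0 to 3 with 1 array left out. Those in dissected aortas against saline, 3 of 7, numbered 1 with slide as a block, 5 with array weights and 2 to 3 with 1 array left out. With median centring Fgf1 was not called in that comparison (limma adjusted p = 0.0994), while Fgfr1 (-1.04, 0.0299) and Fgfr2 (-1.32, 0.013) were called lower. The 1 of 7 between dissected and non-dissected aortas became 2 with the scanner's ratio, the authors' table or only the groups compared and 3 with array weights. It stayed at 1 with median centring, where Fgfr2 was called and Fgf9 was not. It became 0 with scale normalization, slide or scan day as a block, within the second scan day and with the tissue covariates, and 0 to 1 with 1 array left out. The count at 14 days, 0, became 1 with the tissue covariates, and that across saline aortas, 0, became 1 with scan day as a block and 0 to 1 with 1 array left out. The counts at 28 days and for the effect among times stayed at 0. Fgf10 between dissected and non-dissected aortas, 0.00, was -1.32 with the scanner's ratio and the authors' table (adjusted p = 0.0342 and 0.0343). The cause was not tested. With the replicate block, Fgf1 at 7 days had an adjusted p of 0.0708 and Fgfr2 in dissected aortas against saline 0.0211, with no other call changed, and same-numbered arrays of different groups correlated by 0.07 on average, with 38 of 91 pairs over 0.1. Median centring moved the median of all genes by -0.36 in dissected aortas against saline, -0.29 against non-dissected aortas and -0.15 at 14 days, and 13.8, 2.96 and 28.9 percent of calls were then higher, against 51.7, 38.1 and 46.8 percent. Scale normalization gave 62.7, 58.4 and 100 percent there, 79 against 53.5 percent at 7 days and 66.3 against 92.9 percent at 28 days, and the scanner's ratio gave 31.8 percent at 14 days. Over all genes, calls numbered 5069 at 7 days (206 within the second scan day to 7903 with array weights), 449 at 14 days (1 within the second scan day to 994 with array weights), 168 at 28 days (0 with only the groups compared to 4082 with scale normalization), 6818 in dissected aortas against saline (2081 with scale normalization) and 1500 against non-dissected aortas (8 within the second scan day to 5230 with array weights). Dim ligand probes limit the precision for Fgf1, Fgf2, Fgf9 and Fgf10.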
